A study of Rattus norvegicus with 6 samples.

Results

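Antigen presentation genes display fragments of a cell's proteins to T cells, and 59 rows of the 17055 in each count file belonged to them. They were taken by symbol, as every row beginning with RT1-, the rat name for the major histocompatibility complex (MHC), together with B2m, Tap1, Tap2, Tapbp, Erap1, Psmb8, Psmb9, Psmb10, Cd74 and Ciita. Nlrc5, an activator of class I genes that was also looked for, had no row. The rows came from whole islets of Langerhans of Sprague-Dawley rats, an outbred stock, with 3 libraries of 10-day-old pups (P10) and 3 of 3-month-old males (adult). The animals of both ages were untreated controls by their labels, the sex of the pups was not given, and neither was whether a P10 library pooled several pups. Each library was labelled a biological replicate, and the p-values rest on the spread among these 6 libraries alone. In mRNA of whole islets, fewer cells of a type and less mRNA per cell cannot be told apart.

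MHC class I molecules pair a heavy chain with the light chain beta-2-microglobulin and are found on nearly all cells with a nucleus. Proteasomes cut cytosolic proteins, the Tap1 and Tap2 transporter carries the pieces into the endoplasmic reticulum, tapasin (Tapbp) holds empty class I molecules beside it, and Erap1 trims the pieces to length. Interferons raise most of these genes and exchange the catalytic subunits of the proteasome for Psmb8, Psmb9 and Psmb10. Class II molecules, made of an alpha and a beta chain, present engulfed proteins and belong mainly to macrophages, dendritic cells and B cells, where Ciita switches on their genes and Cd74, the invariant chain, guards the groove. In humans, raised class I on islet cells is a known feature of type 1 diabetes.

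Promoters of 49 members were found in RefSeq tables of the GRCr8 assembly, each window running from 250 bases before to 50 after the start site. The promoters of 3 genes that rose in adult islets (RT1-A2, RT1-CE16, Tapbp), of the light chain and of a class II chain are shown because the results turn on these genes. Capitals mark letters found by search on both strands, and each line reads 5′ to 3′ along the gene.
RT1-A2 (chr20:4872621-4872920, + strand): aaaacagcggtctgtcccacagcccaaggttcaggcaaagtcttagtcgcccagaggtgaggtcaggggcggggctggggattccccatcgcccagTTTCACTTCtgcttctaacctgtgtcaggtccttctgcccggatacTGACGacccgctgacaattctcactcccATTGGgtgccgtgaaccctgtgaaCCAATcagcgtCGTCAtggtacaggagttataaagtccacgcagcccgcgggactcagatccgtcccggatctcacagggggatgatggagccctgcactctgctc
RT1-CE16 (chr20:3265394-3265693, - strand): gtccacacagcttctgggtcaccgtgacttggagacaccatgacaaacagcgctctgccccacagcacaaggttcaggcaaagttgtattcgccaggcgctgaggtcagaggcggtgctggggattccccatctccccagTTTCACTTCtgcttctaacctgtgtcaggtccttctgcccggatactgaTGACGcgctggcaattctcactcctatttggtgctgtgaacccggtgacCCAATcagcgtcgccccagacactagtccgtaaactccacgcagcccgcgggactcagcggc
Tapbp (chr20:4967828-4968127, - strand): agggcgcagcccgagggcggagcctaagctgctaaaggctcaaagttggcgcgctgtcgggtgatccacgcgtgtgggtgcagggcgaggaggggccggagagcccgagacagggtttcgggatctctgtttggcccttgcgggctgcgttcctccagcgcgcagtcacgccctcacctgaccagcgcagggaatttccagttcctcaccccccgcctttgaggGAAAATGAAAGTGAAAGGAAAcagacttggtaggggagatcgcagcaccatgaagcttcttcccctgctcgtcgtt
B2m (chr3:129549080-129549379, + strand): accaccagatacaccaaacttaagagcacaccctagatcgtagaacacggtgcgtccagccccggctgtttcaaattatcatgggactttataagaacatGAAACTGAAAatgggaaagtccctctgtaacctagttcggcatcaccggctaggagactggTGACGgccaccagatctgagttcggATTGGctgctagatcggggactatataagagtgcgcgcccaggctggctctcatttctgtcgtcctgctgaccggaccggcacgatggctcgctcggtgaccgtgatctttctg
RT1-Da (chr20:4515165-4515464, + strand): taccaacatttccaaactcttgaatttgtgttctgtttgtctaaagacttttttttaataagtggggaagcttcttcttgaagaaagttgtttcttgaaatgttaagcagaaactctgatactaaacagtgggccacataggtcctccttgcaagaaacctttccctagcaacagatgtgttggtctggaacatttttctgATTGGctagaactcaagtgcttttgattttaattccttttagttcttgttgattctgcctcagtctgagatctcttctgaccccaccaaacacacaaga

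Marked were the core of the interferon-stimulated response element (GAAA, any 2 bases, GAAA), a form of it that is 1 base shorter (GAANNGAAA), the inverted CCAAT box of MHC promoters (ATTGG) and the core of the cyclic AMP response element (TGACG). The form GAANNGAAA was chosen after the promoters were read, and in Tapbp it overlaps the core. RT1-A2 and RT1-CE16 share the run TTTCACTTC and the CCAAT and TGACG letters downstream of it. RT1-CE11 and RT1-CE13, which had no read in any library, hold TTTCACTTC as well. Tapbp holds 2 matches to the interferon core next to its start site, and B2m holds 1, at 150 bases before the start. Psmb10, which fell in adults, also holds 2, and Tap1 and Psmb8, which did not pass, hold 1 each. GAANNGAAA stood in 4 of 6 promoters of class I chains that rose and in 4 of 11 that were tested and did not pass. Of 49 members' promoters, 9 held the interferon core, found in 3.92% of all 33469 promoters, and 17 held GAANNGAAA, found in 8.54%. The inverted CCAAT box stood in all 9 class II chain promoters of the table and in 21 of 32 of class I chains, against 37.5% of all promoters. TGACG stood in 12 of the 49 against 21.2%. The gamma-activated site TTCNNNGAA, not marked, was found in 3 of 49 against 8.87%. A match is a run of letters and not a measured binding site.

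P10 replicate 1 stood apart for these genes. It was the highest P10 library for 24 of the 29 members that could be tested, while over all 10124 tested genes it was the highest for 38.2%. For 11 of the 29 it exceeded both other P10 libraries more than 2-fold, as it did for 225 of all tested genes. Its interferon-stimulated genes summed to 548 normalised CPM (read counts scaled to a common library size) against 236 and 234 in P10 replicates 3 and 4. Its B cell markers summed to 16.3 against 1.78 and 5.34 CPM. The results below are therefore given with and without that library where it changes them. It was picked out by the values of these same genes, so a call gained without it is a description and no independent support. Reads assigned to genes numbered from 3307415 to 6477825 per library, and alignments that were not unique made up 23.4% to 27.7% of the reads counted at P10 and 15.1% to 17.8% in adults. Alignments that were not unique were set aside by the counter, and RT1 genes are known to resemble each other closely, so their rows may miss reads or divide them unevenly, which was not measured. The count of an RT1 row also depends on how closely each animal's alleles match the reference, which was not measured.

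Adult islets had more mRNA of class I heavy chains than P10 islets, above all of RT1-CE16, RT1-A2 and RT1-A1, and more of tapasin. The other steps of the class I pathway did not follow evenly. Transporter and light chain overlapped between the ages because of 1 P10 library, and of the immunoproteasome subunits Psmb10 fell while Psmb8 and Psmb9 did not pass. No class II gene passed. Of the 59 rows, 16 held no read in any library, 14 had reads but too few to be tested and 29 were tested. Of these, 7 rose and 1 fell, counted where the Benjamini-Hochberg adjusted p of edgeR's quasi-likelihood fit (FDR) was under 0.05. The same fit called 26.3% of all 10124 tested genes, 12.5% higher and 13.8% lower. The median log2 fold change of the 29, adult over P10, was 0.49, and that of all tested genes -0.03. The tested rows are those with enough reads in one of the groups, so these counts and medians are no measure of all members.

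**Figure D1:**
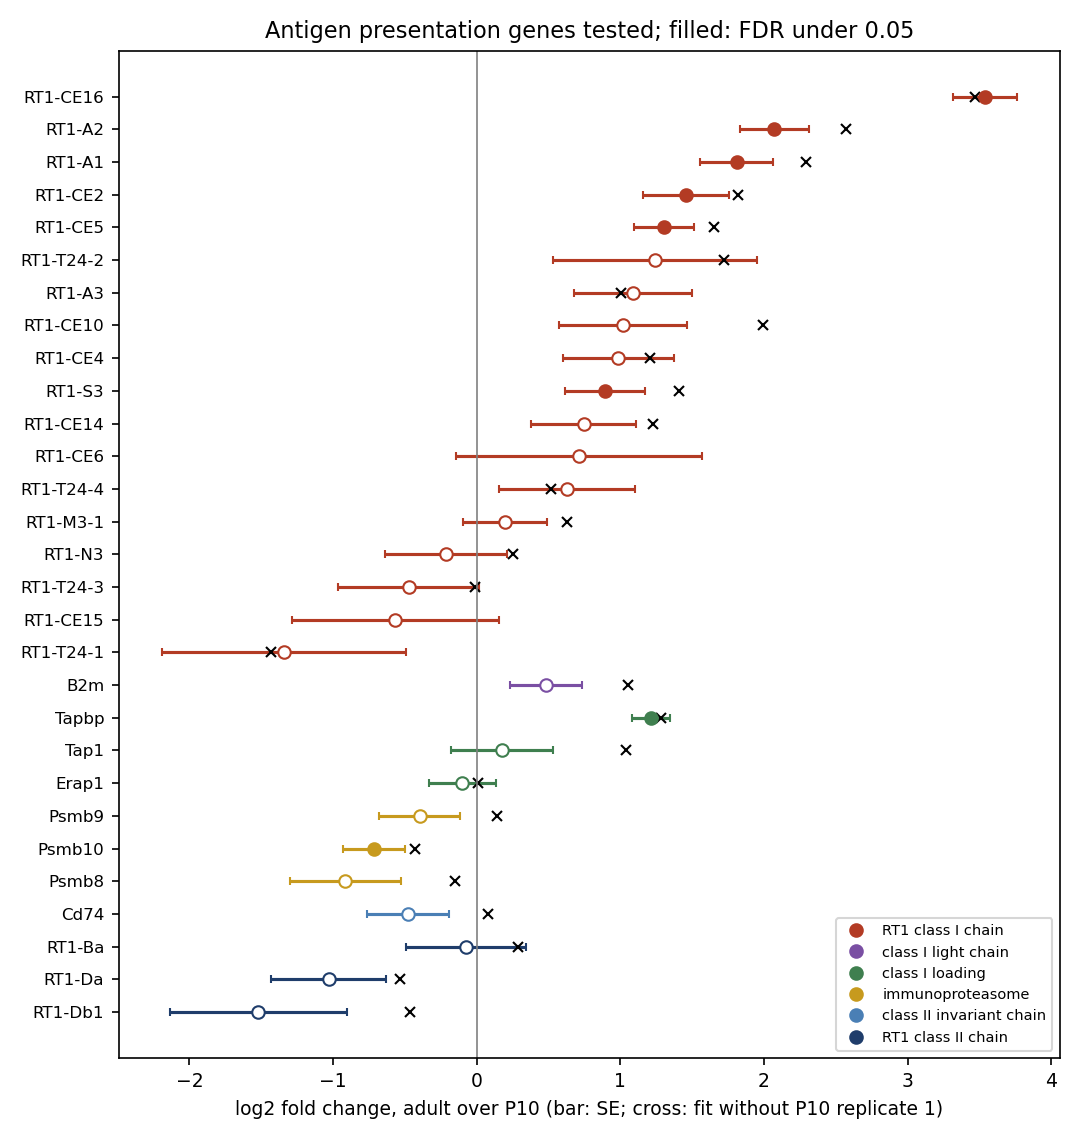
Log2 fold change, adult over P10, for the 29 tested antigen presentation genes, grouped by role; points are edgeR estimates with bars of 1 SE, filled where the FDR is under 0.05, and crosses show the fit without P10 replicate 1. RT1-CE16 lies farthest to the right at 3.54, and the crosses of B2m and Tap1 lie near 1.06 and 1.04 against 0.49 and 0.18 with all libraries.

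The heavy chains of class I made up most of the member rows. Of 39 rows, 13 had no read, 8 had too few and 18 were tested, of which 6 rose, 0 fell and 12 did not pass. RT1-A1 and RT1-A2 belong to the classical class I loci of the rat, the ones that present peptides to cytotoxic T cells. RT1-A2 measured 119, 53.2 and 56.1 CPM in P10 replicates 1, 3 and 4, and 327, 352 and 289 CPM in adult replicates 1, 2 and 3. All adult libraries lay above all P10 libraries, with more than 2-fold between the highest pup and the lowest adult. RT1-A2 rose 4.21-fold (log2 fold change 2.07 ± 0.24 (SE), edgeR FDR = 1.22e-05). RT1-A1 measured 45.3, 21.7 and 21.1 CPM at P10 and 88.5, 127 and 98.2 CPM in adults, again without overlap, and rose 3.51-fold (log2 fold change 1.81 ± 0.25 (SE), edgeR FDR = 8.27e-05). RT1-A3 went from 5.22 ± 0.685 to 11.0 ± 2.65 CPM (SD, n = 3) without overlap and did not pass (edgeR FDR = 0.0626).

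The RT1-CE rows, class I genes of a separate cluster, included the largest change among the members. RT1-CE16 measured 9.90, 11.9 and 11.2 CPM at P10 and 172, 115 and 98.2 CPM in adults. The lowest adult library stood more than 8-fold above the highest P10 library, and P10 replicate 1 was here the lowest of the pups. RT1-CE16 rose 11.6-fold (log2 fold change 3.54 ± 0.22 (SE), edgeR FDR = 1.51e-08). RT1-CE5 measured 69.98, 42.8 and 35.9 CPM at P10 and 109.97, 144 and 117 CPM in adults, and RT1-CE2 15.9, 9.66 and 7.77 CPM against 39.8, 28.2 and 25.3 CPM. Neither overlapped between the ages. They rose 2.47-fold and 2.74-fold (log2 fold changes 1.31 ± 0.21 and 1.46 ± 0.30 (SE), edgeR FDR = 0.000282 and 0.00196). RT1-CE4 did not overlap either, at 7.87, 4.61 and 6.55 CPM against 11.4, 10.6 and 15.4 CPM, and did not pass (edgeR FDR = 0.0728).

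RT1-CE10 and RT1-CE14 were set apart by 1 library. RT1-CE10 measured 21.7, 4.90 and 7.04 CPM at P10 and 15.6, 20.9 and 32.1 CPM in adults. RT1-CE14 measured 16.0, 7.73 and 7.28 CPM against 22.1, 18.7 and 12.5 CPM. Both overlapped only through P10 replicate 1, and neither passed (edgeR FDR = 0.106 and 0.148). Without that library RT1-CE10, RT1-CE14 and RT1-CE4 passed, with log2 fold changes of 1.99, 1.23 and 1.21 (edgeR FDR = 0.00117, 0.0198 and 0.0405).

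**Figure D2:**
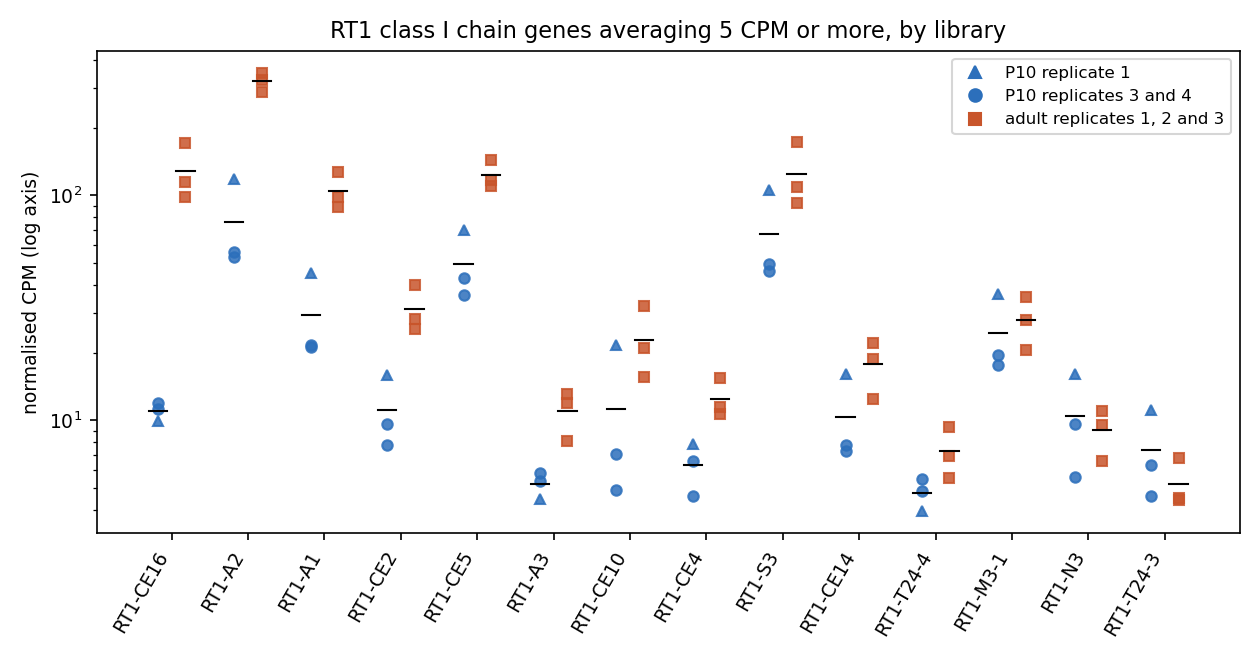
Normalised CPM on a log axis for the 14 RT1 class I chain genes averaging 5 CPM or more, 1 point per library, with black lines at group means; levels are not corrected for gene length and can be compared within a gene only. In RT1-CE16 and the RT1-A genes all adult squares lie above all P10 points, while in RT1-CE10, RT1-CE14 and RT1-S3 the P10 replicate 1 triangle reaches into the adult range.

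The remaining class I rows lie outside the RT1-A and RT1-CE groups. RT1-S3, the rat counterpart of mouse H2-T23 by its RefSeq synonyms, measured 106, 46.1 and 49.8 CPM at P10 and 109, 92.7 and 173 CPM in adults. P10 replicate 1 lay within the adult range, and the other pups below it. RT1-S3 rose 1.86-fold (log2 fold change 0.89 ± 0.28 (SE), edgeR FDR = 0.0261). That call was lost under 6 of 12 alternatives, among them DESeq2 and library totals alone (FDR up to 0.225). RT1-M3-1, named H2-M3 in mice, where it presents formylated peptides, measured 36.5, 17.7 and 19.4 CPM at P10 and 28.0, 20.5 and 35.4 CPM in adults, with full overlap (edgeR FDR = 0.669). RT1-N3 and RT1-T24-3 went from 10.5 ± 5.32 to 9.04 ± 2.26 CPM and from 7.35 ± 3.38 to 5.23 ± 1.36 CPM (SD, n = 3), and RT1-T24-4 from 4.76 ± 0.787 to 7.29 ± 1.94 CPM. None of these passed (edgeR FDR = 0.755, 0.526 and 0.360).

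Class I rows with few reads went both ways. RT1-CE3 had 4 counts at P10 and 35 in adults, a ratio of normalised counts of 14.4 with an exact 95% counting interval of 5.15 to 55.8, and was too sparse to be tested. RT1-T24-1 went the other way with 54 counts at P10 and 14 in adults, 2.34-fold lower in adults by normalised counts. It was tested and did not pass (edgeR FDR = 0.272). RT1-N2, with 10 counts in the pups, had no adult count, which puts it at least 2.02-fold lower if the adult group is given 3 counts. Intervals and such floors cover counting error only. RT1-CE1, RT1-CE7, RT1-CE11, RT1-CE12 and RT1-CE13 were listed at 0 in every library, as were 6 of the RT1-M rows and RT1-N1 and RT1-Cl.

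Summed over all 39 rows, class I heavy chains held 497, 256 and 255 CPM at P10 and 972, 975 and 953 CPM in adults. The adult libraries lay close together and all above the highest pup. The sum was 2.88 times as high in adults, from 336 ± 140 to 967 ± 11.6 CPM (SD, n = 3). The 3 RT1-A rows came to 3.96 times and the 14 RT1-CE rows to 3.31 times their summed P10 level, while the other 22 rows came to 1.52 times with overlapping groups. The mixture changed as well. RT1-CE16 made up 3.67% ± 1.46 of the class I counts at P10 and 13.3% ± 3.91 in adults (SD, n = 3), RT1-A2 22.2% ± 1.57 and 33.4% ± 2.90. The share of RT1-M3-1 went from 7.29% ± 0.346 to 2.90% ± 0.806 and that of RT1-S3 from 19.6% ± 1.63 to 12.9% ± 4.59. These sums and shares are descriptions with no test.

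B2m encodes the light chain without which class I molecules do not reach the cell surface. It measured 2388, 1089 and 887 CPM at P10 and 1906, 2007 and 2201 CPM in adults. P10 replicate 1 was the highest of all 6 libraries, and the other pups the lowest. B2m did not pass (log2 fold change 0.49 ± 0.25 (SE), edgeR FDR = 0.170). Without P10 replicate 1 its log2 fold change was 1.06 (edgeR FDR = 4.01e-05), and under library totals alone it was 0.01. The ratio of RT1-A2 to B2m was 0.0498, 0.0489 and 0.0632 at P10 and 0.172, 0.175 and 0.131 in adults, so in this ratio P10 replicate 1 lay with the other pups.

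Of the loading genes, tapasin rose and the transporter did not pass. Tapbp measured 85.03, 72.5 and 79.4 CPM at P10 and 187, 179 and 184 CPM in adults. The libraries of each age lay close together, and P10 replicate 1 was only slightly above the other pups. Tapbp rose 2.32-fold (log2 fold change 1.21 ± 0.13 (SE), edgeR FDR = 5.81e-06). Tap1 measured 79.5, 26.0 and 20.9 CPM at P10 and 49.5, 50.6 and 45.0 CPM in adults, with the highest and the lowest library both among the pups. It did not pass (log2 fold change 0.18 ± 0.36 (SE), edgeR FDR = 0.761), but passed without P10 replicate 1 (log2 fold change 1.04, edgeR FDR = 0.00155). Its sign turned under library totals alone (-0.30), without P10 replicate 3 (-0.08) and without P10 replicate 4 (-0.12). Erap1 measured 24.01 ± 2.81 and 22.6 ± 3.45 CPM (SD, n = 3; edgeR FDR = 0.794). Tap2 was listed at 0 in all 6 libraries.

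**Figure D3:**
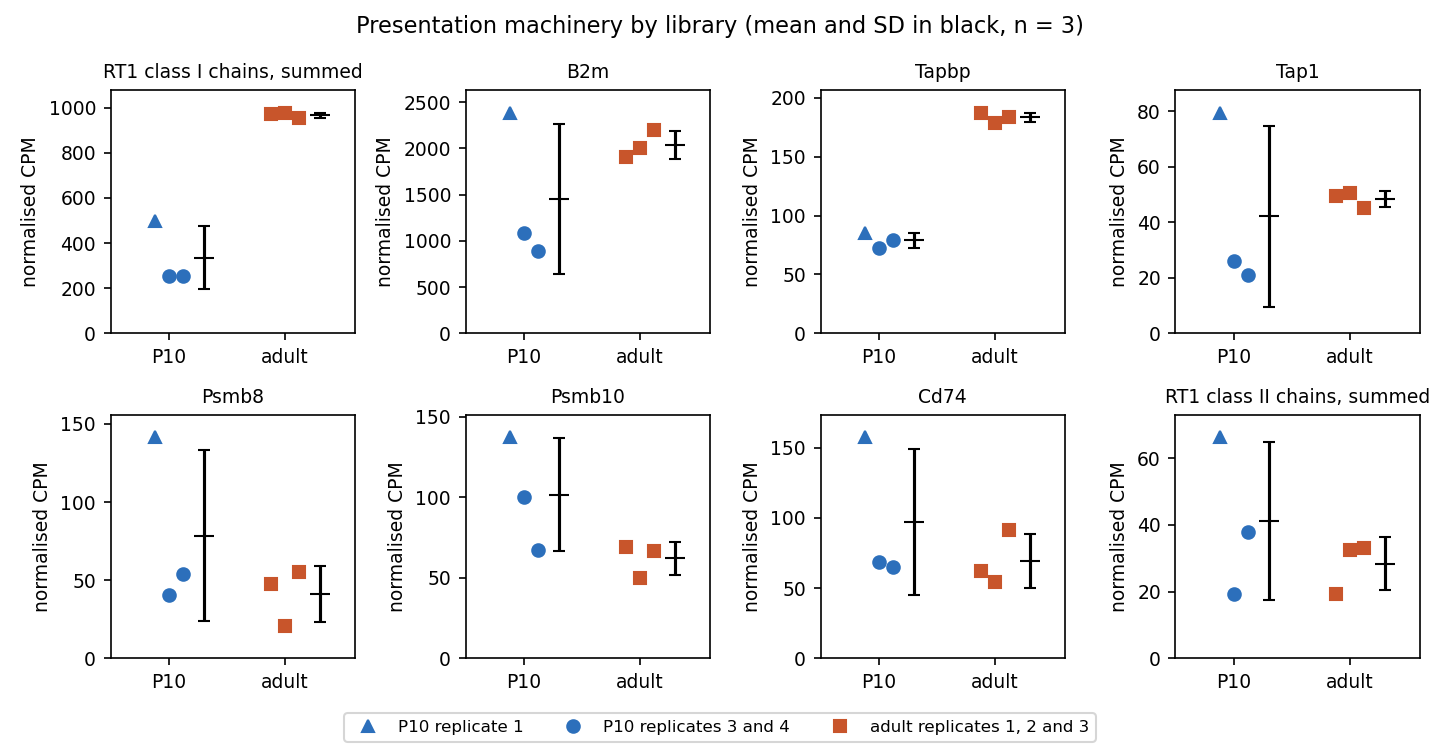
Normalised CPM per library for summed class I and class II chains and 6 single genes, with mean and SD in black (n = 3 per group) and axes starting at 0. The P10 replicate 1 triangle lies above all other points for B2m, Tap1, Psmb8, Psmb10, Cd74 and the class II chains, and within the gap between the ages for the class I chains.

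In the immunoproteasome, Psmb10 fell and the other subunits did not pass. Psmb10 measured 137, 100.4 and 67.0 CPM at P10 and 69.2, 49.8 and 66.8 CPM in adults, with P10 replicate 4 inside the adult range. It fell 1.64-fold (log2 fold change -0.72 ± 0.22 (SE), edgeR FDR = 0.0236), a call lost without P10 replicate 1, P10 replicate 3 or adult replicate 2 (edgeR FDR = 0.124, 0.0562 and 0.119). Psmb8 measured 141, 40.4 and 53.6 CPM at P10 and 47.4, 20.9 and 55.3 CPM in adults, and Psmb9 92.4, 44.6 and 35.7 CPM against 47.0, 35.2 and 49.2 CPM. In both, P10 replicate 1 was high and the other 5 libraries overlapped (edgeR FDR = 0.0942 and 0.329). Without P10 replicate 1 the log2 fold changes of Psmb8 and Psmb9 were -0.15 and 0.14. Under library totals alone both passed as lower (edgeR FDR = 0.00789 and 0.0196). Psmb8 also passed without a filter on low counts and without P10 replicate 3 (edgeR FDR = 0.00552 and 0.0265).

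Each inducible subunit replaces a constitutive one, so ratios within a library were also compared. Psmb8 over Psmb5 was 1.11, 0.333 and 0.445 at P10 and 0.445, 0.193 and 0.491 in adults. Psmb9 over Psmb6 was 0.352, 0.165 and 0.159 against 0.271, 0.195 and 0.274, and Psmb10 over Psmb7 was 0.688, 0.715 and 0.524 against 0.539, 0.517 and 0.492. The ages overlapped in every ratio, and in the ratio of Psmb9 to Psmb6 all adults lay above P10 replicates 3 and 4. Psmb6 itself fell 1.42-fold, from 252 ± 24.8 to 178 ± 3.77 CPM (SD, n = 3; edgeR FDR = 0.00682), while Psmb5 (123 ± 3.404 and 109 ± 3.13 CPM) and Psmb7 (156 ± 38.2 and 120.2 ± 20.95 CPM) did not pass (edgeR FDR = 0.346 and 0.133). Of 4 proteasome activator genes 0 were called.

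**Figure D4:**
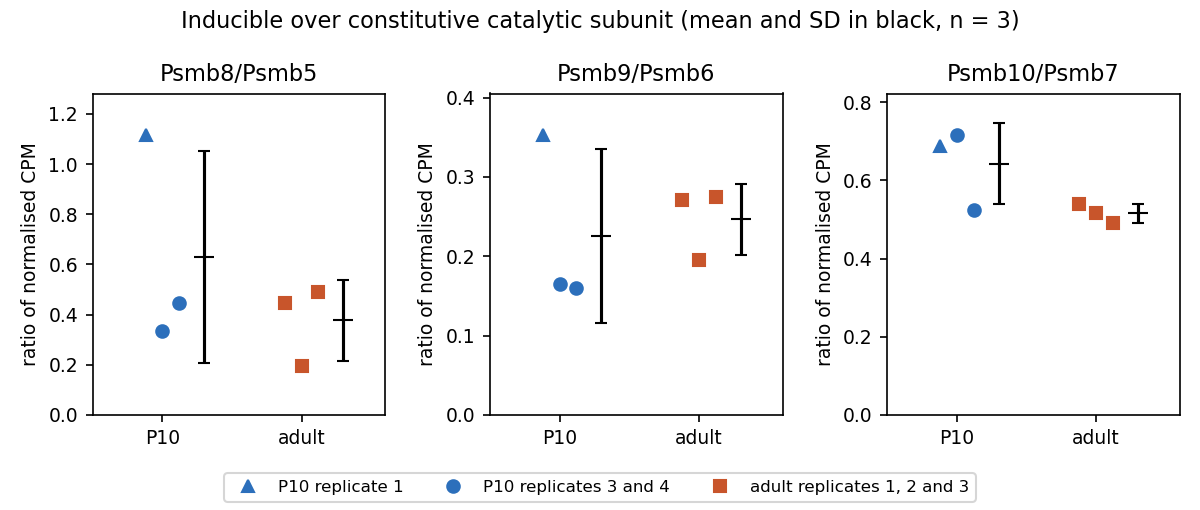
Ratio of normalised CPM of each inducible catalytic subunit to the constitutive subunit it replaces, 1 point per library, mean and SD in black (n = 3), axes starting at 0; gene lengths differ, so the ratio shows differences between libraries and not the number of molecules. For Psmb8 over Psmb5 the P10 replicate 1 triangle stands at 1.11 and the other 5 libraries between 0.193 and 0.491.

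Class II genes were lower in number of reads and none of those tested passed. Cd74 measured 157, 68.4 and 65.3 CPM at P10 and 62.2, 54.6 and 91.3 CPM in adults, so that apart from P10 replicate 1 the ages shared a range (log2 fold change -0.48 ± 0.28 (SE), edgeR FDR = 0.238). It passed as lower under library totals alone (edgeR FDR = 0.0118). RT1-Da and RT1-Db1 encode the alpha and beta chain of 1 class II molecule. RT1-Da measured 22.5, 8.77 and 12.1 CPM at P10 and 6.22, 6.60 and 8.26 CPM in adults, without overlap, and RT1-Db1 19.7, 3.42 and 6.31 CPM against 4.15, 4.03 and 2.39 CPM, with overlap. The groups failed to overlap in 42.3% of all tested genes. Neither chain passed (log2 fold changes -1.03 ± 0.40 and -1.52 ± 0.62 (SE), edgeR FDR = 0.0713 and 0.0818). Both passed as lower without P10 replicate 3 (edgeR FDR = 0.0366 and 0.0280) and under library totals alone (0.00636 and 0.0139), and RT1-Db1 also without a filter on low counts (0.0390). Without P10 replicate 1 their log2 fold changes were -0.53 and -0.46 (edgeR FDR = 0.368 and 0.635).

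The chains of the other class II molecule did not move alike. RT1-Ba, its alpha chain, measured 21.0, 6.54 and 17.7 CPM at P10 and 7.26, 17.6 and 17.6 CPM in adults, the same range at both ages (edgeR FDR = 0.918). RT1-Bb, its beta chain, had no count in any P10 library and 5, 12 and 27 counts in adult replicates 1, 2 and 3. That is at least 24.2-fold higher in adults, set against 3 counts over the P10 group, and the row was too sparse to be tested. RT1-Db2 had the opposite pattern, with 7, 4 and 4 counts at P10 and none in adults, at least 3.04-fold lower. RT1-DOb and RT1-DOa, chains of a regulator of peptide loading known from B cells, had 11 and 5 counts, all in P10 replicate 1, and none in the other libraries. RT1-DMb, a chain of the peptide exchange factor, had 3 counts, all in P10 replicate 4, and its partner RT1-DMa and RT1-Ha were listed at 0. Ciita had 12 counts at P10, none of them in replicate 1, and 1 in adults, a ratio of 7.29 with an exact 95% counting interval of 1.08 to 312. Summed class II chains came to 66.3, 19.3 and 37.9 CPM at P10 and 19.4, 32.6 and 33.2 CPM in adults, with overlap.

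Without P10 replicate 1, 13 of 28 tested members rose and none fell by edgeR. In that fit 12.5% of 10123 tested genes were called higher and 12.5% lower. That library was singled out because it was high in these same members. Leaving it out was bound to move most of them towards higher in adults, so the count is a description only. The 13 were Tapbp, B2m, Tap1, 9 class I chains and RT1-Bb. RT1-Bb, with no P10 count, passed the filter on low counts only through the adult group where it is high. Its call is therefore no result. At an unadjusted p under 0.05, 17 of the 28 differed. With library totals alone, which shifted the median of all tested genes to -0.52, 6 members were higher and 6 lower, where 3.39% of all tested genes were called higher and 35.7% lower. RT1-A1, RT1-A2, RT1-CE2, RT1-CE5, RT1-CE16 and Tapbp were called higher under all 12 alternatives.

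By position in the RefSeq annotation of GRCr8, used for gene order only, 52 members lie on chromosome 20. RT1-A3, RT1-A2, RT1-A1 and Tapbp are neighbours among the members at 1 end of this order, and all 4 had adult libraries above every P10 library, as did 2028 of all 10124 tested genes. RT1-A3 did not pass. Next to them lie the class II chains with Psmb8, Tap1 and Psmb9 between, of which none passed. On the far side of the class II chains follow the RT1-CE rows, where 3 of 8 tested rose. Then come the other class I genes, where 1 of 7 tested rose. Over all tested genes 12.5% were called higher, close to the share in the last set. B2m, Psmb10, Cd74, Erap1 and Ciita lie on other chromosomes.

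Genes that feed or switch on the pathway were counted as lists. Over all tested genes 12.5% were called higher and 13.8% lower, which are the shares to read these counts against. Of 10 other loading factors 2 rose, Sec61a1, a channel subunit of the endoplasmic reticulum, 1.36-fold and Pdia3, the oxidoreductase paired with tapasin, 1.32-fold (edgeR FDR = 0.00630 and 0.0147). In class II processing 2 of 8 tested rose and 2 fell. Ctsl1, cathepsin L, fell 2.32-fold and Ifi30, a lysosomal thiol reductase, 1.66-fold, whereas Ctsb, cathepsin B, rose 1.65-fold and Cst3, a cathepsin inhibitor, 1.31-fold (edgeR FDR = 1.31e-06, 0.00640, 0.000175 and 0.0265). Of 7 factors known to bind MHC promoters 0 were called. Of 6 co-stimulation genes 5 had a row, and 0 of the 2 tested were called.

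Interferon and NF-kB pathways are known to act on class I promoters, and their genes were counted against the 12.5% of all tested genes called higher. In interferon signalling 5 of 14 tested rose, among them Irf7 7.24-fold and Stat2 2.40-fold, while 0 fell and 9 did not pass (edgeR FDR = 7.04e-05 and 0.000621). Irf1, which mediates the response to interferon gamma, measured 54.6 ± 8.06 and 56.6 ± 5.24 CPM (SD, n = 3; edgeR FDR = 0.855), and Ifng itself was listed at 0 in every library. Of 20 tested interferon-stimulated genes 14 rose, with Cxcl10 at 5.27-fold and Isg15 at 5.20-fold, while 0 fell and 6 did not pass (edgeR FDR = 2.68e-07 and 2.79e-06). Of 4 tested NF-kB factors 3 rose, among them Nfkb2 3.05-fold and Nfkbia 2.40-fold (edgeR FDR = 3.41e-05 and 0.00109). Summed interferon-stimulated genes ran from 234 to 548 CPM at P10 and from 790 to 1388 CPM in adults. Their part in the class I result was not tested.

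Cells that carry class II or much class I were followed by their markers. Of 22 macrophage and dendritic cell markers 20 had a row and 15 were tested, of which 0 rose and 2 fell, Lyz2 2.70-fold and C1qb 1.85-fold (edgeR FDR = 0.00958 and 0.0490). That share is close to the 13.8% of all tested genes called lower. By log2 fold change 7 of the 15 lay above 0 and 8 below. Their summed level ran from 116 to 216 CPM at P10 and from 104 to 174 CPM in adults, highest in P10 replicate 1. The dendritic cell genes Flt3 and Xcr1 were at 0 throughout. Clec9a, another of them, had 6 and 9 counts in P10 replicates 1 and 3 and 2 in adult replicate 2. Ptprc, the pan-leukocyte antigen CD45, measured 4.64 ± 1.72 and 1.89 ± 1.57 CPM (SD, n = 3; edgeR FDR = 0.247). B cell markers summed to 1.78 to 16.3 CPM at P10 and 0.184 to 3.11 CPM in adults, with Ms4a1 at 0 in all adults. T and NK cell markers summed to 11.9 to 22.2 CPM at P10 and 5.32 to 7.95 CPM in adults, and Cd3e was at 0 in all adults. In none of these 3 lists did an adult sum exceed the highest P10 sum. Their part in the class I and class II values was not tested.

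Endothelial markers were lower in adults in 4 of 12 cases with 0 higher, led by Cldn5 and Egfl7, and summed to 236 to 373 CPM at P10 and 138 to 196 CPM in adults. Fibroblast markers fell in 5 of 6 tested, and their mean sum was 2718 CPM at P10 and 225 CPM in adults. Duct markers fell in 4 of 4, with mean sums of 1095 and 164 CPM. Of 10 endocrine markers 7 rose and 1 fell, and their sum, mostly insulin, was 2.04 times as high in adults. It ran from 260787 to 327799 CPM at P10 and from 563943 to 700467 CPM in adults. These counts are to be read against the 12.5% of all tested genes called higher and the 13.8% called lower. The part of a changed cell mixture in the class I, class II and immunoproteasome values was not tested.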

How the data were processed

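The authors deposited raw counts of reads for each gene, with a separate file per library. Per the labels' protocols, polyadenylated RNA was selected with oligo(dT) and sequenced from one end without strand information. The submitters' processing notes name the rn5 build, HTSeq, Bowtie2 and TopHat2 (2.0.10), and list edgeR and DESeq with no role. The annotation release is not given in the sources used here. The 5 counter rows entered neither the library sizes nor the fits. Ambiguous reads came to 0.319% to 0.474% of gene counts and counters together, and alignments that were not unique 15.1% to 27.7%. A joined table of the same counts was not used. Without strand, reads of overlapping genes cannot be told apart.

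Counts were fitted in edgeR 4.0.16 (R 4.3.3) with filterByExpr (minimum count 10, total 15; 10124 genes left), TMM factors and the age group as the only term, and p-values were adjusted by Benjamini-Hochberg over all tested genes (threshold 0.05). SE is the absolute log2 fold change over the root of the F statistic. CPM are scaled by the TMM factors, and 3 counts in a library correspond to 0.407 to 1.10 CPM. The biological coefficient of variation was 23.7%. The script was tested on simulated counts.

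Named genes are all members, with values for those averaging 5 CPM or called, up to 2 per list and direction with the smallest p, and Psmb5, Psmb6, Psmb7, Irf1 and Ptprc; a further gene named by this rule is not reported here. Ifng, Flt3, Xcr1, Clec9a, Ms4a1, Blk, Pax5 and Cd3e were named after their values were seen. Members and lists were chosen with earlier results of these data known. The alternatives tried were library totals alone, factors by relative log expression, TMM factors without hormone genes, DESeq2 1.42.0, no filter, the replicate number as a block and leaving out each library; counts set apart for class I and class II chains and the motif GAANNGAAA were added after seeing the data.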

Additional observations from a re-analysis of the deposited data

How the results depend on the processing

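Over all tested genes, 1265 were higher and 1394 lower in adults, against 343 and 3612 under library totals alone, 679 and 729 with the replicate number as a block, and 923 to 1262 higher and 1040 to 1266 lower without single libraries. Members called numbered 7 higher and 1 lower. They were 6 and 6 under library totals alone, 11 and 3 without a filter on low counts, and 6 and 1 with the block. Without single libraries 6 to 13 were higher and 0 to 3 lower. Class II chains had 0 called, with 2 at an unadjusted p under 0.05 in edgeR. DESeq2 gave 1 higher (RT1-Bb), no filter 1 higher and 1 lower, and library totals alone 2 lower, and leaving out libraries gave 0 to 1 higher and 0 to 2 lower. Immunoproteasome subunits called lower were 3 under library totals alone, 2 without a filter and 0 to 1 without single libraries. The summed class I chains had a log2 ratio of 1.52, and of 1.04 under library totals alone. Without single libraries it ran from 1.37 to 1.93, the highest without P10 replicate 1. For class II chains that range was -0.87 to 0.00, for Psmb8 over Psmb5 -1.05 to -0.05, for Psmb9 over Psmb6 -0.07 to 0.60 and for Psmb10 over Psmb7 -0.44 to -0.23.

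Signs turned for members that did not pass. Without P10 replicate 1 these were Cd74 (0.081), Erap1 (0.012), Psmb9 (0.14), RT1-Ba (0.29) and RT1-N3 (0.25). RT1-Ba also turned with the block (0.0058), without P10 replicate 4 (0.055) and without adult replicate 1 (0.23). Without adult replicate 3 Erap1 (0.035) and RT1-M3-1 (-0.018) turned, and under library totals alone RT1-M3-1 (-0.27) and Tap1 (-0.30), which also turned without P10 replicate 3 (-0.078) or 4 (-0.12). Over the fits without single libraries the log2 fold change ran from -0.73 to 0.081 for Cd74, -0.18 to 0.035 for Erap1, -0.63 to 0.14 for Psmb9, -0.43 to 0.29 for RT1-Ba, -0.018 to 0.63 for RT1-M3-1, -0.49 to 0.25 for RT1-N3 and -0.12 to 1.04 for Tap1. The cause was not tested. Numbers 1 and 3 are shared by the groups, and deviations of same-numbered libraries had correlations of -0.027 and -0.0043. Pairs with different numbers ran from -0.062 to 0.047. These values showed no pairing over all genes. Whether same-numbered samples share more than a number for some genes was not tested. The block took away the call of RT1-S3 (edgeR FDR = 0.0843) and no other member's. Depth limits the 14 untested rows with reads.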
